A study of Mus musculus with 10 samples.

Results

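Neurexins, neuroligins and leucine-rich repeat transmembrane (Lrrtm) proteins, which join the 2 sides of a synapse, were examined in the cortex of Chd8 knock-in (KI) and wild-type (WT) mice. The 9 genes were Nrxn2 and Nrxn3, Nlgn1, Nlgn2 and Nlgn3, and Lrrtm1, Lrrtm2, Lrrtm3 and Lrrtm4. They were picked by gene symbol from the 13661 genes in the authors' deposited table, all 9 were listed there with a p-value, and other genes of these families were not analysed here. The series compares 5 KI with 5 WT libraries of poly(A) RNA, each from the cortex of a male at 8 weeks of age. The KI allele was made to model duplication of Chd8, a chromatin remodeller gene linked to autism. The labels give neither the construct and its promoter nor the strain, and they do not say whether animals shared a litter. The deposited file holds 1 comparison of the 2 genotypes, with no values for single libraries.

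Neurexins sit in the presynaptic membrane and act as a hub for many postsynaptic and secreted ligands. Neuroligins and Lrrtm proteins sit in the postsynaptic membrane and bind neurexins across the cleft. Nlgn1 is found mainly at excitatory synapses and Nlgn2 at inhibitory ones, Nlgn3 is found at both, and Lrrtm proteins act at excitatory synapses, where they help to hold AMPA receptors. Each neurexin gene makes long alpha and short beta forms from separate promoters, and their RNAs are spliced at several sites. At splice site 4 of neurexins a short exon is used or skipped. Forms that lack its insert bind Lrrtm1 and Lrrtm2, and forms that carry it bind secreted cerebellins such as Cbln1.

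The exons used alternatively at splice site 4 of Nrxn3 and at splice site A of the neuroligins are shown because the deposited values are for whole genes and pool the forms with and without them. The Nrxn3 exon holds 90 bases and lies on the forward strand at chr12:90199147-90199236 (GRCm38, GENCODE M21 transcripts). It is printed without marks.
Nrxn3 splice site 4 exon: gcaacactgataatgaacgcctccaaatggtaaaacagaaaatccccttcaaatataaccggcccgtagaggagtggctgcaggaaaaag
In GENCODE M21 this exon was part of 4 protein-coding Nrxn3 transcripts and skipped in 1.

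The exons at splice site A hold 60 bases in Nlgn1 (chr3:25920178-25920237, reverse strand), 51 in Nlgn2 (chr11:69830563-69830613, reverse strand), and 60 in each of a pair of separate Nlgn3 exons (chrX:101303072-101303131 and chrX:101307075-101307134, forward strand). Capitals mark the 17 of 60 positions at which the Nlgn1 exon and the downstream Nlgn3 exon differ, and the other exons are given without marks. The Nlgn1 exon was identical to the downstream Nlgn3 exon at 71.7% of its bases and to the upstream one at 26.7%.
Nlgn1 splice site A exon: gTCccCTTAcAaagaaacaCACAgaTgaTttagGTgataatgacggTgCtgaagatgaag
Nlgn3 downstream splice site A exon: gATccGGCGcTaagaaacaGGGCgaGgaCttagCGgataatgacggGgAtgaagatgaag
Nlgn3 upstream splice site A exon: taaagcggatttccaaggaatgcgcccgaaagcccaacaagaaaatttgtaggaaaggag
Nlgn2 splice site A exon: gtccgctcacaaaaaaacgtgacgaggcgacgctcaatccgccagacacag
How often any of these exons was used in KI or WT cortex cannot be read from whole-gene values.

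The 9 genes are protein-coding and, apart from Lrrtm1 and Lrrtm4, lie on separate chromosomes in the RefSeq annotation of GRCm38. Nrxn2 lies at chr19:6418756-6533217 and Nrxn3 at chr12:88722701-90334935. Nlgn1 lies at chr3:25421808-26332866, Nlgn2 at chr11:69823123-69837784 and Nlgn3 at chrX:101299179-101321350. Lrrtm1 lies at chr6:77229210-77259915, Lrrtm3 at chr10:63928497-64090255 and Lrrtm4 at chr6:80018858-80810162, and Lrrtm2 is on chromosome 18.

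All 9 genes were detected well above the bottom of the table. Their mean normalised counts over all libraries ran from 689 for Lrrtm4 to 9102 for Nrxn2 in the authors' deposited table, where the lowest listed gene had 24.4 and the median gene 549. Per kilobase of annotated exon, the level was 1070.5 for Nlgn2, 659 for Nrxn2, 464 for Lrrtm1, 374 for Nrxn3, 284 for Lrrtm2, 277 for Lrrtm3, 176 for Nlgn3, 128 for Nlgn1 and 112 for Lrrtm4 (mean normalised counts of the authors' deposited table divided by exon length). Nlgn2, the inhibitory synapse form, thus stood at the head of the neuroligins, and Lrrtm1 at the head of the Lrrtm genes. Divided by the longest transcript, Nrxn2 (1365) stood above Nlgn2 (1112), Nrxn3 (595) above Lrrtm1 (476), Lrrtm3 (302.1) above Lrrtm2 (301.2) and Lrrtm4 (155) above Nlgn1 (146), so the order of these 4 pairs of neighbours depends on the length used. The spread of levels over libraries is not known, and no neighbours in the order were tested.

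**Figure D1:**
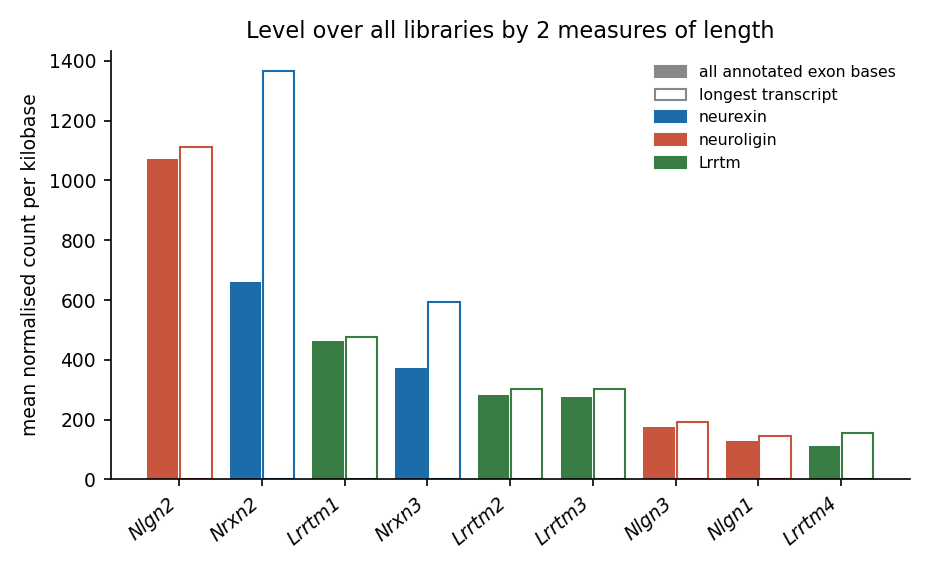
Mean normalised count per kilobase (vertical axis) of the 9 genes over all 10 libraries, divided by all annotated exon bases (filled bars) or by the longest transcript (open bars). Nlgn2 leads on the first measure (1070.5) and Nrxn2 on the second (1365).

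By the authors' DESeq2 Wald test, 0 of the 9 genes were called at an adjusted p under 0.05 (all at 0.9999 in the authors' deposited table), and 0 had an unadjusted p under 0.05. Over all 13660 genes, 0.0732% were called (0.00732% higher and 0.0659% lower in KI), and 3.22% had an unadjusted p under 0.05. Chd8 was among those called, with an implied 2889 normalised counts in KI against 2059 in WT (1.40-fold, adjusted p = 0.0044, interval 1.22 to 1.61), from the authors' deposited table. With a t distribution on 8 degrees of freedom in place of the normal, 0 genes in the table were called, and the adjusted p of Chd8 was 0.9999 (Benjamini-Hochberg). No column header says which genotype the fold change is over. KI over WT was taken from the sign of Chd8, so all directions given here depend on that choice. Fold changes are the authors', intervals are 95% normal intervals from the deposited standard errors, and the KI and WT levels given below are those implied by the deposited mean and fold change, not values of libraries. In whole cortex, a change in the number of cells of a type and a change in RNA per cell cannot be told apart.

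The 2 neurexins stood slightly above 0 with intervals that held 0. Nrxn2, which had the smallest standard error of the 9 genes, had an implied level of 9192 normalised counts in KI cortex against 9011 in WT cortex, a 1.02-fold ratio (interval 0.972 to 1.07, unadjusted p = 0.422) in the authors' deposited table. Its interval places any difference in the average between 2.83% lower and 7.10% higher in KI. Nrxn3 had an implied 4787 normalised counts in KI against 4633 in WT, a 1.03-fold ratio with a wider interval (0.921 to 1.16, unadjusted p = 0.577) in the authors' deposited table. Both values lay within the interquartile range of all genes, which was -0.051 to 0.054 on the log2 scale.

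All 3 neuroligins likewise stood a few percent above 0 and did not pass. Nlgn1 had an implied 1757 normalised counts in KI and 1690.3 in WT (1.04-fold, interval 0.956 to 1.13, unadjusted p = 0.361) in the authors' deposited table. Nlgn2 had 6258 in KI and 6128 in WT (1.02-fold, interval 0.970 to 1.08, unadjusted p = 0.429) in the authors' deposited table. The excitatory and inhibitory synapse forms therefore had overlapping intervals, and their difference was not tested because the covariance of the estimates is unknown here. Nlgn3, the X-linked member, had 1664 in KI and 1602 in WT (1.04-fold, interval 0.975 to 1.11, unadjusted p = 0.244) in the authors' deposited table. In GENCODE M21, 41.2% of the Nlgn3 exon bases also belong to Gm21986, a transcript on the same strand. The deposited genes carry NCBI gene numbers, and the annotation behind the authors' counts is unknown here. Overlaps in GENCODE may therefore differ from those in the annotation used for counting.

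Of the 4 Lrrtm genes, Lrrtm1, Lrrtm2 and Lrrtm3 had negative values and Lrrtm4 a positive one, and none passed. Lrrtm1 had the smallest unadjusted p of the 9 genes, 0.126, with an implied 1373 normalised counts in KI against 1444 in WT (0.950 of the WT level, interval 0.891 to 1.01) in the authors' deposited table. By p it stood 1161st of the genes tested. Lrrtm2 had 1676 in KI against 1741 in WT (0.963, interval 0.888 to 1.04, unadjusted p = 0.353) in the authors' deposited table. Lrrtm3 had the largest difference of the 9 genes and also the largest standard error, with 1135 in KI against 1219 in WT (0.931, interval 0.822 to 1.05, unadjusted p = 0.257) in the authors' deposited table. Its log2 fold change of -0.10 was exceeded in size by 22.7% of all genes tested. Lrrtm4 had 697 in KI against 682 in WT (1.02-fold, interval 0.922 to 1.13, unadjusted p = 0.675) in the authors' deposited table.

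**Figure D2:**
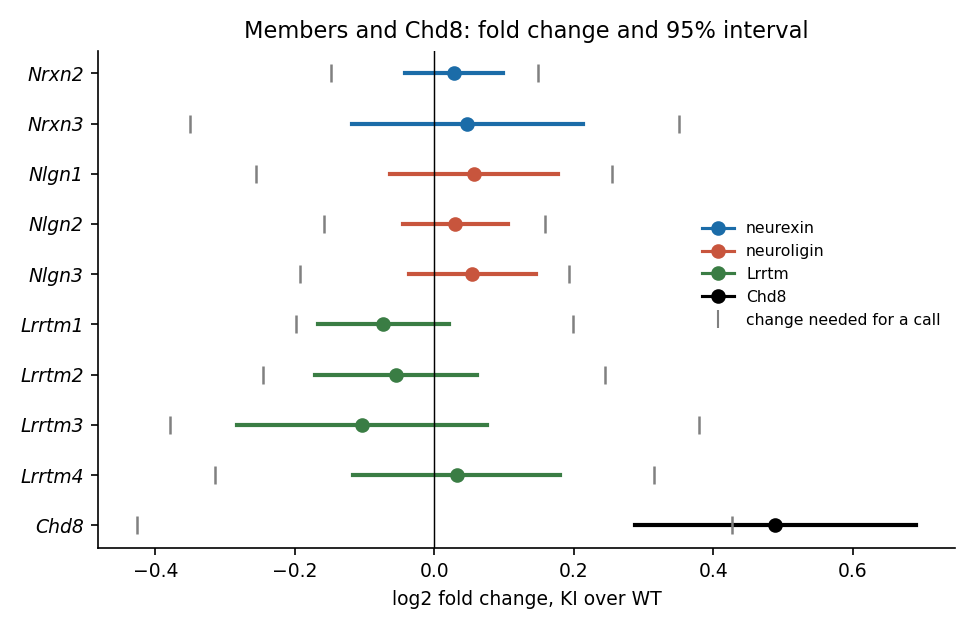
Log2 fold change of KI over WT (horizontal axis) for the 9 genes and Chd8 (rows), with points for the authors' deposited values, lines for 95% intervals and grey ticks for the change that would have reached the smallest Wald score among called genes. All 9 intervals hold 0 and lie inside their ticks, while Chd8 stands at 0.49.

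Lrrtm1, Lrrtm2 and Lrrtm3 each lie inside an alpha-catenin gene on the opposite strand, Ctnna2, Ctnna1 and Ctnna3, whose proteins link cadherins to the actin cytoskeleton. In GENCODE M21 no exon base of Lrrtm1 or Lrrtm3 and 1.58% of those of Lrrtm2 were shared with the host. On the log2 scale the host Ctnna1 had a fold change of -0.11 (standard error 0.072) and Ctnna2 one of -0.0069 (0.040) in the authors' deposited table, neither past the threshold, and Ctnna3 was not among the genes tested. Lrrtm4 shares 25.1% of its exon bases with an antisense gene, Gm4409, and Nlgn1 shares 9.16% with the antisense gene A830092H15Rik. Slc22a12 on the opposite strand covers 4.94% of the Nrxn2 exon bases, and for Nlgn2 no overlapping gene was annotated. Whether the counting used strand is not given, so reads in such overlaps cannot be assigned here.

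Standard errors were mostly below that of the typical gene, with Lrrtm3 above it. They ran from 0.036 for Nrxn2 to 0.091 for Lrrtm3 on the log2 scale in the authors' deposited table, with a median of 0.059 over the 9 genes against 0.089 over all genes. The interval lay within 0.25 of 0 on the log2 scale, a 1.19-fold difference either way, for 8 of the 9 genes (Lrrtm3 was the exception) and for 54.9% of all genes tested. The smallest Wald score in size among called genes was 4.15, and to reach it a gene would have needed a 1.11-fold difference at the standard error of Nrxn2 and a 1.30-fold difference at that of Lrrtm3. These are sizes of the observed estimate at the deposited standard errors, not limits on the true difference.

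Taken by family, 2 of 2 neurexins, 3 of 3 neuroligins and 1 of 4 Lrrtm genes had a positive value, 6 of 9 in all, against 51.6% of all genes tested. The median log2 fold change was 0.038 for neurexins, 0.054 for neuroligins, -0.064 for Lrrtm genes and 0.030 for the 9 together, against 0.0025 over all genes in the authors' deposited table. Longer transcripts had higher fold changes over all genes (Spearman correlation 0.236 over 13098 genes, which are not independent). The median longest transcript was 8541 bases for neuroligins and 4166 for Lrrtm genes, against 3565 over all genes. With the linear trend on length removed, each of the 9 genes kept its sign. Nrxn2 then stood at 0.0062, against 0.029 as deposited, and Nrxn3 at 0.019, against 0.047. The neuroligins stood at 0.014 for Nlgn1 and Nlgn2 and 0.023 for Nlgn3, and Lrrtm3 stood at -0.11.

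**Figure D3:**
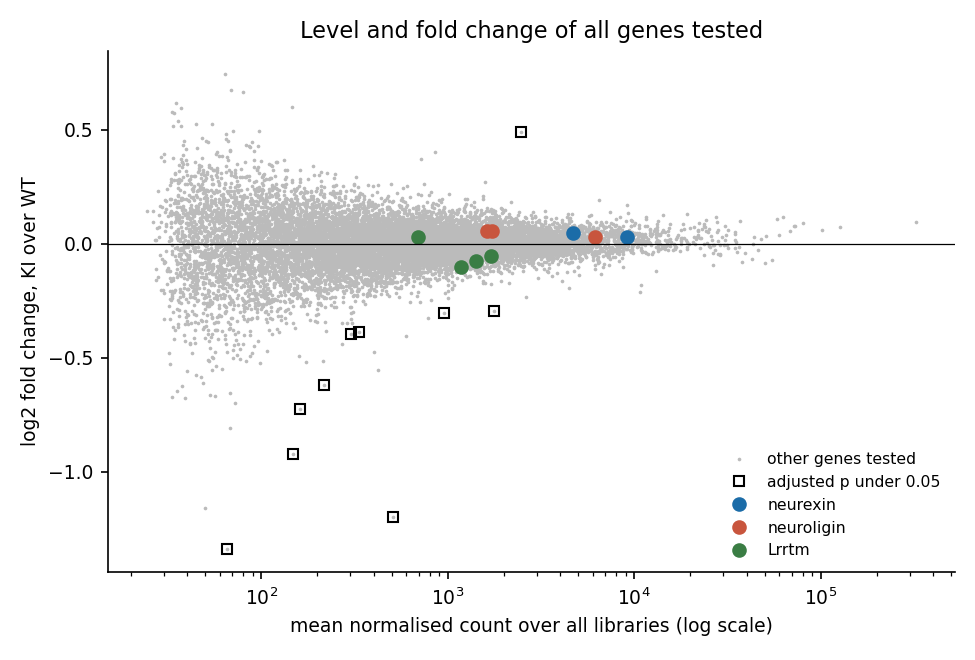
Mean normalised count over all libraries (horizontal log axis) and log2 fold change of KI over WT (vertical axis) of the genes tested, one point a gene, from the authors' deposited table. The 9 genes (coloured) lie between -0.10 and 0.056, inside the cloud of other genes, and none is among the 10 past the threshold (squares).

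A wider set of 84 genes was read in 7 lists by role. It holds genes known to work with these proteins and, in a separate list, 35 other trans-synaptic adhesion proteins. The genes of that separate list need not work with neurexins, neuroligins or Lrrtm proteins. For short, the whole set is called partner genes here. Of the 84, 83 genes were tested and Mmp9, a protease that sheds neuroligins, was not. Of the 83, 0 were called in the authors' deposited table. On the higher side in KI 4 had an unadjusted p under 0.05 and on the lower side 2, that is 6 of 83 genes, against 1.34% and 1.88% of all genes. The median log2 fold change of the 83 was 0.023 with 55 positive values, and 0.0099 with 49 positive once the length trend was removed. As deposited, 51.6% of all genes tested had a positive value.

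Secreted and membrane ligands of neurexins had negative values in 10 of 13 cases (median -0.021), and in 8 of 13 (median -0.032) with the length trend removed, with no call. Cbln4, a secreted cerebellin that binds neurexins with the splice site 4 insert, had an implied 349 normalised counts in KI against 404 in WT (log2 fold change -0.21, standard error 0.094, unadjusted p = 0.0236, adjusted p = 0.9999) in the authors' deposited table. Its relative Cbln2 stood at -0.14 (0.081, unadjusted p = 0.0917), and Cbln1 at -0.090 (0.11) in the authors' deposited table. Adgrl1, a latrophilin, stood at 0.091 (0.072). The 4 neurexophilin genes Nxph1, Nxph2, Nxph3 and Nxph4, whose products bind alpha-neurexins, lay between -0.12 and 0.0071 in the authors' deposited table. The positive values in this list were those of Adgrl1, C1ql2 and Nxph3.

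Among 6 extracellular modulators of neuroligins and Lrrtm proteins, 4 had positive values (median 0.074, and 0.046 with 4 positive after removal of the length trend), with no call. Mdga1 and Mdga2 encode proteins that bind neuroligins and block their contact with neurexins. Mdga1 stood at -0.14 (standard error 0.075, unadjusted p = 0.0548) and Mdga2 at 0.10 (0.084) in the authors' deposited table. Gpc4, a heparan sulphate proteoglycan that binds Lrrtm4, stood at 0.15 (0.085, unadjusted p = 0.0686) in the authors' deposited table.

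Partners inside the cell had mostly positive values and no call. All 9 presynaptic genes were positive (median 0.059, and 0.052 with all 9 still positive after removal of the length trend). Over all genes tested, 51.6% were positive as deposited. Cask, a scaffold that binds the neurexin tail, had an implied 1793 normalised counts in KI against 1658 in WT (log2 fold change 0.11, standard error 0.056, unadjusted p = 0.0434, adjusted p = 0.9999) in the authors' deposited table, and its complex partners Lin7b and Apba1 stood at 0.11 (0.069) and 0.074 (0.050) there. Of 10 postsynaptic scaffold partners 8 were positive (median 0.056, and 0.042 with 8 positive after that removal). Dlg2, a scaffold of the PSD-95 family, stood at 0.10 (0.043, unadjusted p = 0.0197) and Dlg3 at 0.071 (0.037) in the authors' deposited table. Gphn, encoding gephyrin, the scaffold of inhibitory synapses that binds Nlgn2, stood at 0.041 (0.050) in the authors' deposited table.

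Regulators of splicing and shedding showed no call either. The 6 splicing regulators had a median of 0.010, and of -0.0040 with the length trend removed. Khdrbs1, Khdrbs2 and Khdrbs3, whose RNA-binding proteins act on neurexin splice site 4, stood at 0.0092 (standard error 0.054), -0.10 (0.15) and -0.047 (0.063) in the authors' deposited table. Ptbp2 stood at 0.045 (0.048) and Nova2 at 0.050 (0.057) there. The 4 proteases tested had a median of -0.0084 (-0.0092 with the length trend removed), with Adam10, a sheddase of neuroligins, at -0.043 (0.059) and Psen2 at -0.028 (0.081) in the authors' deposited table.

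In the list of other trans-synaptic adhesion proteins, 25 of 35 genes had positive values (median 0.023) and none passed. With the length trend removed 19 of the 35 were positive, with a median of 0.0031. Ntng1, which encodes netrin-G1 and is strongly expressed in thalamus, had the smallest unadjusted p of the 83 partner genes, 0.0042, with an implied 629 normalised counts in KI against 736 in WT (log2 fold change -0.23, standard error 0.080, adjusted p = 0.906) in the authors' deposited table. Its paralog Ntng2 stood on the other side at 0.18 (0.090, unadjusted p = 0.0444), and Il1rapl1 at 0.21 (0.12, unadjusted p = 0.0793) in the authors' deposited table.

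**Figure D4:**
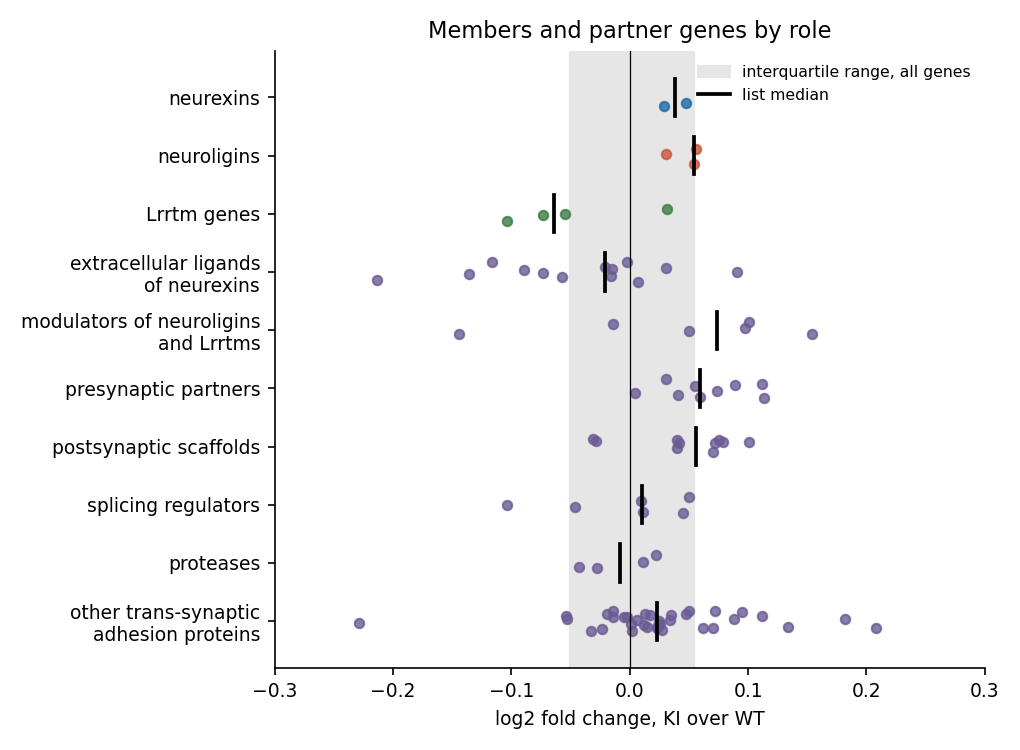
Log2 fold change of KI over WT (horizontal axis) for the 9 genes and 83 partner genes in 10 groups by role (rows), one point a gene, with black bars for group medians and a grey band for the interquartile range of all genes (-0.051 to 0.054). The Lrrtm (-0.064), neurexin ligand (-0.021) and protease (-0.0084) medians are negative. Modulators of neuroligins and Lrrtms (0.074), presynaptic partners (0.059), postsynaptic scaffolds (0.056) and neuroligins (0.054) have positive medians. So do neurexins (0.038), other adhesion proteins (0.023) and splicing regulators (0.010).

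Marker lists of cell types and adjoining tissue were read in the same comparison, and calls were found among thalamus and meningeal markers. The excitatory neuron markers Camk2a and Slc17a7 were abundant, at 62823 and 28078 mean normalised counts in the authors' deposited table, and no listed marker was at 0. All 6 thalamus markers had negative log2 fold changes in the authors' deposited table (-1.34 to -0.32), 4 of them past the threshold. Their implied levels summed to 1743 normalised counts in KI against 2680 in WT. The 4 meningeal and 4 choroid plexus markers were all negative as well, with 1 and 0 past the threshold. These 3 lists hold genes picked with their fall already known, so their direction, calls and summed levels are no independent evidence. Of 6 excitatory markers 5 were positive (sum 134936 in KI against 127523 in WT), and of 6 inhibitory markers 5 were negative (21665 against 22357). All 5 oligodendrocyte markers were negative (104637 against 110245), and all 3 oligodendrocyte precursor markers were positive (2352 against 2163). The astrocyte (34707 against 34860), microglia (4285 against 4274) and endothelial (1740.1 against 1727) lists had values of both signs. None of these 7 cell type lists held a called gene. The sums have no interval and weigh abundant genes most, such as Camk2a (65354 in KI against 60293 in WT). With the length trend removed, 5 of the 6 excitatory markers were positive and 4 of the 6 inhibitory markers negative. The part of tissue or cell makeup in the values of Ntng1, Cbln4, Lrrtm1 and the other genes named here was not tested.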

How the data were processed

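RNA was measured in the cortex of 5 KI and 5 WT mice, grouped by sample title. Per the submitters' processing notes, Trimmomatic 0.39, HISAT2 2.1.0, featureCounts 2.0.0, DESeq2 1.26.0 and build mm10 were used. Their settings, gene annotation and model formula, and whether strand was used, are unknown here. The authors' deposited table holds, per its header, the mean of normalised counts (a signal, made with the authors' size factors), the log2 fold change, its standard error, the Wald score, and the p-value and adjusted p-value. Shrinkage of the log2 values is not stated. The deposited p-values equalled normal p-values of the Wald scores, and the adjusted ones a Benjamini-Hochberg adjustment over 13660 genes. Counts of single libraries were not analysed here. Depth and replicate spread are therefore unknown, and the count model foreseen in the design was not used. Per the labels, each library came from a male mouse.

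Computed here with Python 3.11.15, numpy 2.4.6, pandas 2.3.3 and scipy 1.17.1 were 95% intervals, implied group levels (the deposited mean split by the fold change between 2 groups of equal size, which takes the fold change as unshrunken), levels per kilobase, and alternatives. A call is an adjusted p under 0.05. RefSeq GRCm38 named 13497 genes, and GENCODE M21 gave lengths, overlaps and exons. The recomputation was tested on simulated normal Wald scores at the deposited standard errors. That test cannot tell whether such a distribution holds for these data. The genes named in the text are Chd8, all 9 members, the 3 genes with the smallest p in each partner list and up to 2 per marker list; Cbln1, C1ql2, the Nxph genes, Gphn, Khdrbs1, Khdrbs2, Mmp9 and the overlapping genes were added after their values were seen. A few of these items are not reported here. Members and lists were chosen with earlier results of these data known.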

Additional observations from a re-analysis of the deposited data

How the results depend on the processing

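No member and no partner gene was called under any of the 7 alternatives: thresholds of 0.1 and 0.01, mean normalised count minimums of 50 and 200, a t distribution with 8 degrees of freedom, Wald scores centred and scaled by their robust SD, and removal of the length trend. A threshold of 0.01 can only remove calls, so it could not have added a member or partner gene. Over the whole table the 10 calls became 6 at that threshold, 0 with the t distribution and 22 with scaled scores. The cause was not tested. With 0 calls in the whole table, the t distribution gives no separate information on the members. The median log2 fold change of the members was 0.030, and 0.011 as a weighted mean, 0.028 after centring and 0.014 with the length trend removed. Removal of the length trend from the partner lists was chosen after seeing the data, and the median of the splicing regulators alone changed sign (0.010 and -0.0040). No member changed sign after centring or removal of the length trend. No paired analysis was possible because values of single libraries were not analysed here, and replicates could not be left out. The observed difference needed to reach the smallest Wald score among the deposited calls was 1.11-fold for Nrxn2 and 1.30-fold for Lrrtm3. These sizes follow from the standard errors and do not bound the true differences.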
